A study of Danio rerio with 3 samples.

Results

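The resting zebrafish epicardium was compared between its epithelial and mesenchymal cells in the library of uninjured ventricles (Ctrl). A kept cell was called epithelial when 5 genes, podxl, cldnc, jam2b, ucmaa and slc29a1b, together held at least 5 of its unique molecular identifiers (UMIs, each one a captured transcript counted once) and at least 8 per 10000 of them. A kept cell was called mesenchymal when it held at least 2 UMIs of hapln1a, less than 5 per 10000 on the 5 epithelial genes, no UMI of ptprc (an immune cell gene) and less than 50 per 10000 of myl7 (a cardiomyocyte gene). Kept cells had at least 317 detected genes and at most 5% of their UMIs on the mitochondrial genes. The rule found 209 epithelial cells, or 4.10% of the kept cells (95% interval 3.57 to 4.68%), and 2520 mesenchymal cells, or 49.4% (48.0 to 50.8%). Together these were 2729 of 5098 kept cells of the library and of 15627 kept cells in the series. The other 2369 kept Ctrl cells (46.5%) met neither rule, and 1660 of them held no hapln1a UMI and less than 5 per 10000 on the epithelial genes.

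The study profiled single cells sorted for nuclear EGFP from ventricles of tcf21:nucEGFP zebrafish of the EK strain at 6 months of age. Libraries were made with 10x Genomics 3′ chemistry from uninjured hearts and from hearts at 3 and 7 days after partial amputation of the ventricle (dpa). All 3 libraries carry the reporter, which is driven by regulatory sequence of tcf21, so cells without reporter signal were sorted away, and the level of tcf21 bears on the sort itself. Each condition is 1 library, and the number of ventricles pooled in it is not given in the sources used here. The 209 and 2520 cells therefore share their source, and cells cannot stand in for replicates, so no test between the groups was run. Intervals are exact 95% Poisson intervals for levels and ratios of levels and Clopper-Pearson intervals for shares. They cover counting error only.

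The epicardium is the cell sheet that covers the heart. Its outer cells form an epithelium with tight junctions, keratin filaments and an apical face, and cells that leave this layer by epithelial-to-mesenchymal transition (EMT) lie beneath it as a fibroblast-like population that deposits extracellular matrix. The epicardium is a known source of retinoic acid and of secreted factors that act on heart muscle and vessels. hapln1a encodes a protein that links hyaluronan to proteoglycans, podxl a charged apical sialomucin, cldnc and jam2b tight junction proteins, ucmaa a secreted matrix protein and slc29a1b a nucleoside transporter.

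The values that chose the cells are given as a description. In epithelial cells the 5 genes together held between 8.10 and 41.2 UMIs per 10000, with a median of 15.6. All 5 were detected in 56 epithelial cells and at least 3 in 190, while 8 cells held only 1 of them. Summed over the cells of a group, podxl stood at 6.11 UMIs per 10000 in epithelial cells and 0.0491 in mesenchymal cells, ucmaa at 5.19 and 0.0207, and cldnc at 2.72 and 0.000768. hapln1a stood at 0.396 and 18.6. In single mesenchymal cells the median hapln1a level was 14.8 and the highest 193, and 2444 of the 2520 held no UMI of the 5 epithelial genes. Of the epithelial cells, 188 held no hapln1a UMI and 16 held 2 or more.

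The cells just on either side of the limits were alike in some genes and less so in others. The 16 epithelial cells just inside, at a summed level of 8 to 9, had 8.40 UMIs per 10000 of aldh1a2, 45.1 of krt91 and 0.704 of htra1b. The 14 cells just outside, at 7 to 8, had 7.20, 24.6 and 2.31. On the mesenchymal side, the 370 cells with 2 hapln1a UMIs had 13.6 UMIs per 10000 of dpt and 0.0851 of aldh1a2, and the 527 cells with 1 UMI, which the rule left out, had 13.0 and 0.0616. The 1660 cells with no hapln1a UMI still had 10.6 of dpt and 0.367 of aldh1a2. dpt was thus also high in cells that the mesenchymal rule left out.

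A small set of epithelial cells carried markers of endothelium. Over 9 endothelial markers, 8 of the 209 epithelial cells held between 16 and 132 UMIs, and the other 201 held at most 2. In 7 of these 8 cells podxl was the only one of the 5 rule genes detected, 3 held an aldh1a2 UMI, and 1 held a krt91 UMI. Their UMIs carried some genes past the fold used below. aqp8a.1 was 65.5-fold higher in epithelial cells with them and 0.412 times the mesenchymal level without them, and the ratio of the retinol-binding gene rbp2a went from 92.3 to 0.353. The same held for cldn5b, for which no UMI was left in the other 201 cells, for cxcl12b, whose ratio went from 8.72 to 1.02, and for kdrl, from 4.90 to 1.75. The lists below that count these genes name them as depending on the 8 cells. Immune markers reached 3 or more UMIs in 12 epithelial cells (5.74%) and 90 mesenchymal cells (3.57%), and cardiomyocyte markers in 9 (4.31%) and 94 (3.73%). Markers listed for mural cells did so in 99 (47.4%) and 1489 (59.1%). The rule limited ptprc and myl7 in mesenchymal cells only, which can lower the immune and cardiomyocyte shares of that group.

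Depth differed between the groups, and the rule can add to the gap. An epithelial cell needed at least 5 UMIs of its rule genes and a mesenchymal cell 2 of hapln1a. Shallow epithelial cells could thus be missed, also in their share of the kept cells. Epithelial cells held a median of 11195 UMIs and mesenchymal cells 4658, for totals of 2702618 and 13028019 UMIs, so levels are per 10000 UMIs of the group, and a gene at 0 in epithelial cells has a wider interval. Free RNA in the droplets, which was not measured, can also give each group some UMIs. Levels in 65 immune cells of the library (2 or more ptprc UMIs, median 7588 UMIs) were taken as a guide to it, although these cells express some of the genes themselves. They also held 2.67 per 10000 of hapln1a, 2.40 of dpt and 12.8 of tcf21. Epithelial cells held 0.396 of hapln1a and 0.807 of dpt, so the guide can lie above the level of free RNA. The study describes its immune cluster as apparently contaminating cells or doublets. Few barcodes were shared between libraries, at most 13 for any pair.

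Across the 6328 genes that held at least 100 UMIs over both groups and were no part of the rule, 326 (5.15%) were higher in epithelial cells and 673 (10.6%) were higher in mesenchymal cells with the whole 95% interval of the ratio past 2-fold. These shares are the background against which each group of genes below is read, and a gene meeting this limit is said to be past 2-fold. Past 4-fold the counts were 101 and 193, and past 10-fold 38 and 35. The interval lay wholly past 20-fold for 25 epithelial and no mesenchymal genes, a bound that the smaller epithelial total of UMIs makes harder to reach for genes near absent from epithelial cells. aqp8a.1 and rbp2a are among the 25, and with cldn5b among the 38, and depend on the 8 endothelial-marked cells. CR318588.1, CR318588.3 and si:ch211-165i18.2, also past 20-fold, had higher levels in immune cells (55.2, 3.98 and 2.74) than in epithelial cells (14.2, 1.69 and 0.529). The clone-named si:dkey-183k8.2, past 20-fold too, had no immune UMI, and si:ch211-66e2.3 is described below. ccl35.1, 52.1-fold higher in epithelial cells, had UMIs in 1.44% of them. The median gene differed by 0.04 on the log2 scale. With ribosomal and mitochondrial UMIs left out of the totals, 419 and 559 genes were past 2-fold, so the epithelial share of these genes went from 32.6% to 42.8% while the median moved to 0.19. Of the genes named below, col1a2, c4, hk2, slc2a1b, osr1 and dhrs3a were then no longer past 2-fold. Without the 8 endothelial-marked cells the counts were 319 and 709. For 122 of the 326 epithelial genes (37.4%) the level in mesenchymal cells was at or below that in immune cells, and for 388 of the 673 mesenchymal genes (57.7%) the level in epithelial cells was.

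**Figure D1:**
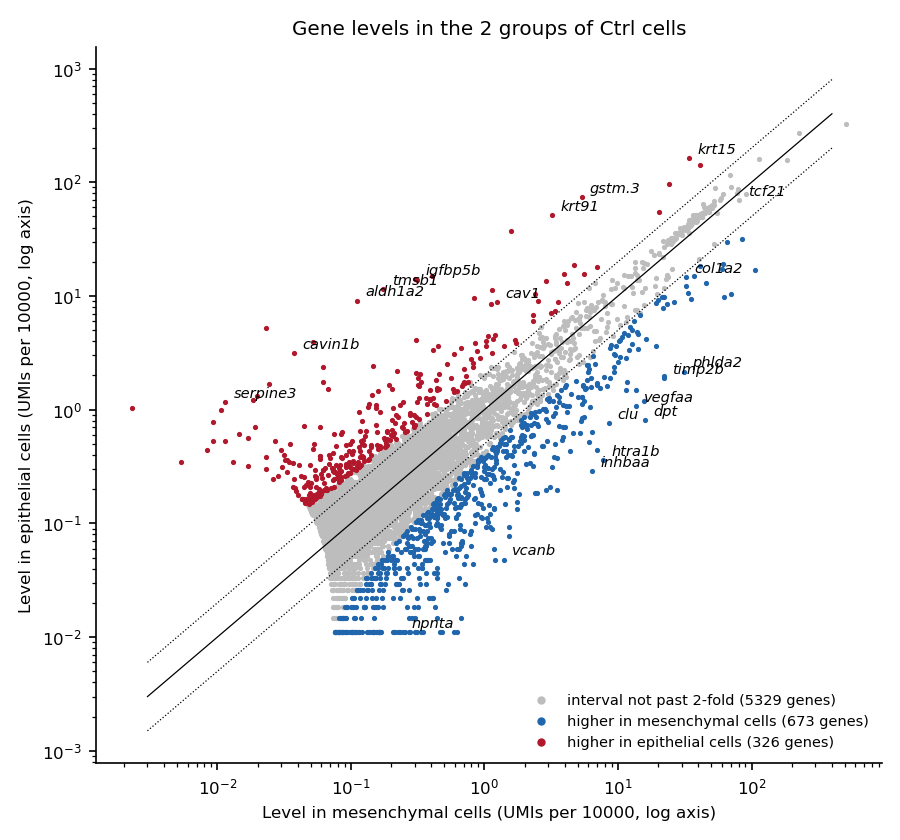
Levels of all genes compared, in UMIs per 10000 on log axes, in mesenchymal (x) and epithelial (y) cells at Ctrl, with genes past 2-fold coloured and levels of 3 UMIs or fewer drawn at the level of 3 UMIs. Of 6328 genes, 326 lie on the epithelial side and 673 on the mesenchymal side.

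The genes that led the epithelial side joined retinoic acid synthesis, caveolae, actin regulation and secreted proteins. aldh1a2, which makes retinoic acid from retinaldehyde, stood at 9.10 UMIs per 10000 (8.74 to 9.47) in epithelial cells and 0.112 (0.0946 to 0.132) in mesenchymal cells, an 81.2-fold difference (68.7 to 96.6). At least 1 aldh1a2 UMI was found in 97.1% of epithelial and 3.29% of mesenchymal cells. With every cell thinned to 1800 UMIs these shares were 77.5% and 1.64%, against 4.76% of immune cells, and the mesenchymal level was also below the 0.244 of immune cells. The middle 50% of epithelial cells lay between 5.82 and 11.9 per 10000, and at least 3 in 4 mesenchymal cells held none, so the cells hardly overlapped for this gene.

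The other 11 leading epithelial genes had ratios between 36.8 and 101. cavin1b, a coat protein of caveolae, stood at 3.14 and 0.0376 UMIs per 10000 (83.5-fold, 62.6 to 114), and serpine3, of the serpin family, at 1.16 and 0.0115 (101-fold, 60.2 to 182). Actin-binding proteins were among them. The thymosin gene tmsb1 stood at 11.5 and 0.175 (65.9-fold, 57.6 to 75.7) and the tropomodulin gene tmod4, whose family caps the slow-growing end of actin filaments, at 0.529 and 0.00921 (57.4-fold, 31.9 to 114). For tmsb1 the immune cells, at 4.90 per 10000, lay between the groups. The insulin-like growth factor binding protein igfbp5b stood at 13.9 and 0.315 (44.3-fold, 40.0 to 49.2), and s100a10a, whose mammalian counterpart partners annexin A2, at 14.9 and 0.405 (36.8-fold, 33.6 to 40.4). c3a.1, a complement C3 gene, stood at 1.32 and 0.0200 (66.4-fold, 44.6 to 103). The remaining leaders were LRATD2, dpp3, wfdc2 and tmem98, with ratios of 75.1, 84.8, 64.7 and 37.9, of which wfdc2 held under 100 UMIs, too few to be compared, in 9 of 18 alternative settings. Several leading genes are listed only by clone names, of which si:ch211-66e2.3 had 5.24 and 0.0230 UMIs per 10000 (227-fold, 159 to 338). This gene was not particular to epithelial cells, since immune cells held 4.04 per 10000 (3.52 to 4.62).

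The genes that led the mesenchymal side were mainly extracellular proteins. dpt encodes dermatopontin, a matrix protein that binds collagen fibrils, and stood at 0.807 UMIs per 10000 (0.703 to 0.921) in epithelial and 16.1 (15.9 to 16.3) in mesenchymal cells, 19.9-fold lower in the epithelial cells (17.4 to 22.9). It was detected in 24.9% of epithelial and 95.6% of mesenchymal cells, and after thinning in 9.09% and 85.6%, against 11.1% of immune cells. The middle 50% of mesenchymal cells lay between 7.56 and 23.2 per 10000, while at least 3 in 4 epithelial cells held none. The secreted serine protease htra1b stood at 0.363 and 7.77 (21.4-fold lower, 17.6 to 26.4), and inhbaa, the subunit of activin A, at 0.289 and 6.40 (22.2-fold lower, 17.7 to 28.1). inhbaa was uneven among mesenchymal cells, with a UMI in 31.4% of them. The large hyaluronan-binding proteoglycan versican is encoded by vcanb, at 0.0481 and 1.40 (29.2-fold lower, 17.0 to 54.9), and a chain of collagen V by col5a3a, at 0.0481 and 1.19 (24.8-fold lower, 14.4 to 46.6).

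Several of these leaders were close to absent from epithelial cells. abi3bpa, an extracellular protein gene, held 3 UMIs in all epithelial cells, for 0.0111 against 0.622 per 10000 (56.0-fold lower, 19.1 to 272). itih5, whose family binds hyaluronan, held 2 (65.3-fold lower, 18.0 to 541). npnta, which encodes the integrin ligand nephronectin, held none against 0.247 per 10000. With 3 UMIs put in place of none it was 22.3-fold lower, a value that is not a limit of its interval. phlda2 was the most abundant leader, at 2.16 and 31.3 (14.5-fold lower, 13.3 to 15.7). The other leaders were nmrk2, a nicotinamide riboside kinase gene, ecrg4a and fgl2b, which were 53.5-fold, 41.8-fold and 17.7-fold lower in epithelial cells.

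**Figure D2:**
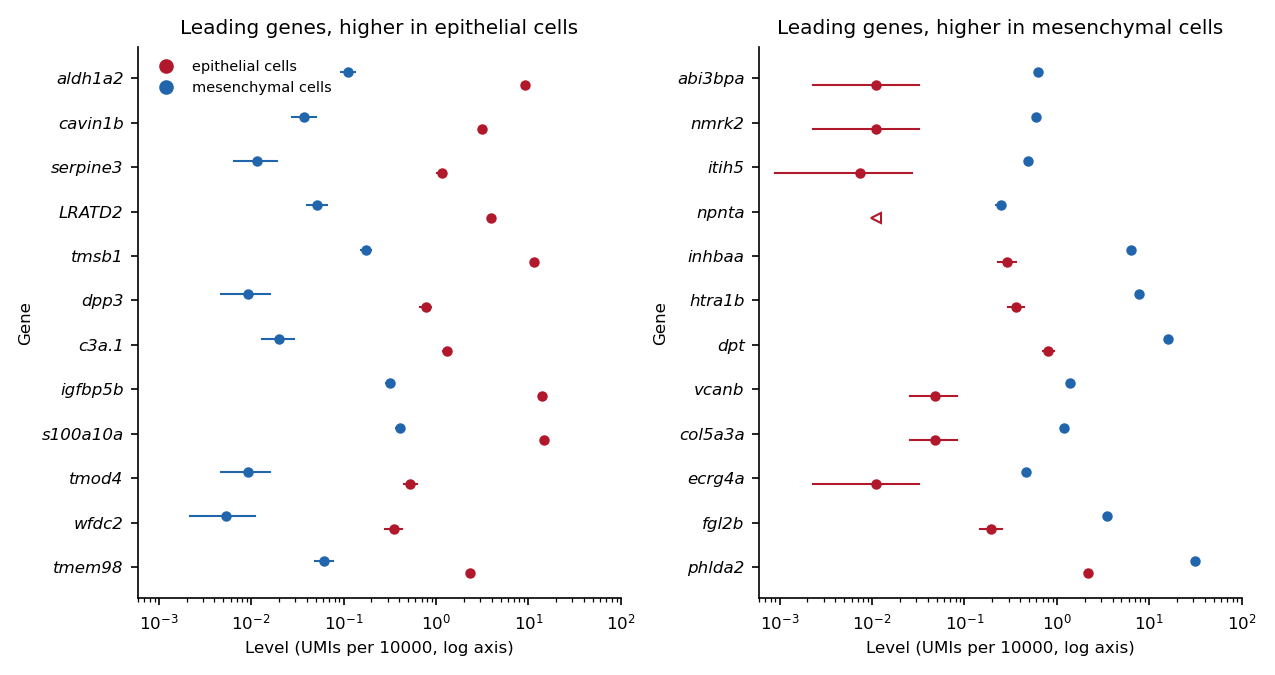
Levels of the 12 leading genes on each side in UMIs per 10000 (log axis) in epithelial and mesenchymal cells at Ctrl, with bars for 95% Poisson intervals and an open triangle for npnta, which had no epithelial UMI and is drawn at the level of 3 UMIs. The intervals of the 2 groups are far apart for all 24 genes, as the choice of leaders requires.

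Keratins, the intermediate filament proteins of epithelia, were mostly higher in epithelial cells. The list held 8 keratins and krtcap2, which encodes another kind of protein, and 6 of the 9 were past 2-fold in epithelial cells and 1 in mesenchymal cells, with a median log2 ratio of 1.98 against 0.04 over all genes. The keratins were among the more abundant transcripts of both groups. krt15 stood at 163 UMIs per 10000 (162 to 165) in epithelial and 34.0 (33.7 to 34.3) in mesenchymal cells (4.80-fold), krt94 at 96.9 and 24.3 (3.99-fold), and krt8 at 54.7 and 20.4 (2.69-fold). The widest gap among the abundant ones was that of krt91, at 51.1 and 3.19 (16.0-fold, 15.5 to 16.6). krt18b went the other way, at 3.09 and 9.33 (3.02-fold lower in epithelial cells), and krt18a.1 was at 5.76 and 5.22. Immune cells held more krt18b than either group, at 24.5. krt5 differed from the rest in being concentrated in few cells. All of its 280 UMIs were in 18 epithelial cells, 257 of them in 6 cells, and none was found in mesenchymal cells. Such concentration was rare. Of 303 epithelial genes with at least 50 epithelial UMIs, 11 had 90% or more of them in the 21 highest cells, and 194 had under 50% there.

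Of 23 tight junction and apical polarity genes compared, 6 were past 2-fold in epithelial and 2 in mesenchymal cells (median log2 ratio 0.48). The claudin gene cldn29 stood at 0.562 and 0.0169 UMIs per 10000 (33.3-fold, 21.2 to 54.7), and tjp2b, which encodes a scaffold that ties claudins to actin, at 2.09 and 0.306 (6.83-fold, 5.99 to 7.78). The polarity gene pard6a, the junctional adhesion gene f11r.1 and the cingulin-like gene cgnl1 were 6.59-fold, 4.02-fold and 3.92-fold higher, and the remaining one, cldn5b, rested on the endothelial-marked cells. On the mesenchymal side was another claudin, cldni, with 0.0074 and 0.312 (42.1-fold lower in epithelial cells, 11.6 to 349, from 2 epithelial UMIs), together with msna, which encodes the membrane-to-actin linker moesin. Adherens junction and desmosome genes were near the background, with 1 of 15 past 2-fold on each side. cdh2, which encodes N-cadherin, was at 1.33 and 1.40 (ratio 0.955, 0.850 to 1.07). The desmosomal gene pkp3b was 3.05-fold higher and the mesenchymal cadherin cdh11 7.68-fold lower (3.47 to 21.1) in epithelial cells.

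Genes of caveolae, flask-shaped pits of the cell membrane, were also mostly higher in epithelial cells. Of 6 compared, 5 were past 2-fold in epithelial cells and none in mesenchymal cells (median log2 ratio 2.12). Beside cavin1b, cav1, the main structural protein of caveolae, stood at 8.87 UMIs per 10000 (8.52 to 9.23) and 1.24 (1.18 to 1.31), a 7.13-fold difference. cav2 was 6.23-fold higher, ehd2b, a membrane-binding ATPase at the caveolar neck, 3.05-fold and cavin2b 2.19-fold. pacsin2, which also bends membranes outside caveolae, was at 0.340 and 0.530. Among 44 annexin, S100 and cytoskeleton genes, 5 and 8 were past 2-fold. Beside tmsb1 and s100a10a, the non-muscle myosin gene myh10 was 8.56-fold, the profilin gene pfn1 3.65-fold and anxa1a 2.80-fold higher in epithelial cells. Immune cells held more pfn1, at 62.8 against 4.23 in epithelial cells. The mesenchymal side held s100a11 (18.5-fold lower in epithelial cells), another thymosin, tmsb2 (8.78-fold), the smooth muscle gene tagln (3.31-fold) and vim, the intermediate filament gene of mesenchyme, at 3.52 and 8.75 (2.48-fold).

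Matrix genes lay on the mesenchymal side in 3 lists. Of 15 basement membrane genes, 12 were past 2-fold in mesenchymal cells and none in epithelial cells (median log2 ratio -1.85). The type IV collagens col4a1 and col4a2 stood at 2.89 and 2.39 UMIs per 10000 in epithelial cells and at 10.4 and 9.30 in mesenchymal cells (3.61-fold and 3.88-fold lower in epithelial cells). lamb1b, a laminin chain, was 5.51-fold lower, the nidogen nid2a 9.46-fold lower and hspg2, which encodes perlecan, 5.14-fold lower. A basement membrane underlies the epicardial epithelium, and its transcripts here were more frequent in the mesenchymal cells.

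Of 17 fibrillar and other collagens, 13 were past 2-fold in mesenchymal and 2 in epithelial cells (median -1.44). The type I chain gene col1a2 was abundant in both, at 14.6 (14.1 to 15.0) and 32.3 (31.9 to 32.6), 2.21-fold lower in epithelial cells. The exceptions were col12a1a, a collagen that decorates fibrils, at 0.955 and 0.166 (5.76-fold higher in epithelial cells, 4.79 to 6.93), and col2a1b, with 0.148 and 0.0484 (3.06-fold, 2.01 to 4.62), which was not past 2-fold or had under 100 UMIs in 11 of 18 alternative settings. Of 42 proteoglycan, elastic fibre and matricellular genes, 19 were past 2-fold in mesenchymal and 4 in epithelial cells (median -0.97). has1, a hyaluronan synthase, stood at 0.0333 and 0.648 (19.5-fold lower, 10.2 to 42.7) and hapln1b, the paralog of the rule gene, at 0.0222 and 0.406 (18.3-fold lower, 8.35 to 50.1). Outside the list, cemip, whose mammalian counterpart takes part in the breakdown of hyaluronan, was 3.51-fold higher in epithelial cells (3.09 to 3.99), at 1.55 and 0.442. The 4 epithelial ones were efemp2a (3.28-fold), the small proteoglycan lum (2.86-fold), the periostin gene postnb, at 5.97 and 2.30 (2.59-fold), and ecm1b (2.38-fold). Among 43 proteases and inhibitors, 3 and 13 were past 2-fold, with timp2b, a metalloproteinase inhibitor, at 1.91 and 22.0 (11.6-fold lower) and mmp2, a gelatinase, at 7.03 and 3.14 (2.24-fold higher in epithelial cells).

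**Figure D3:**
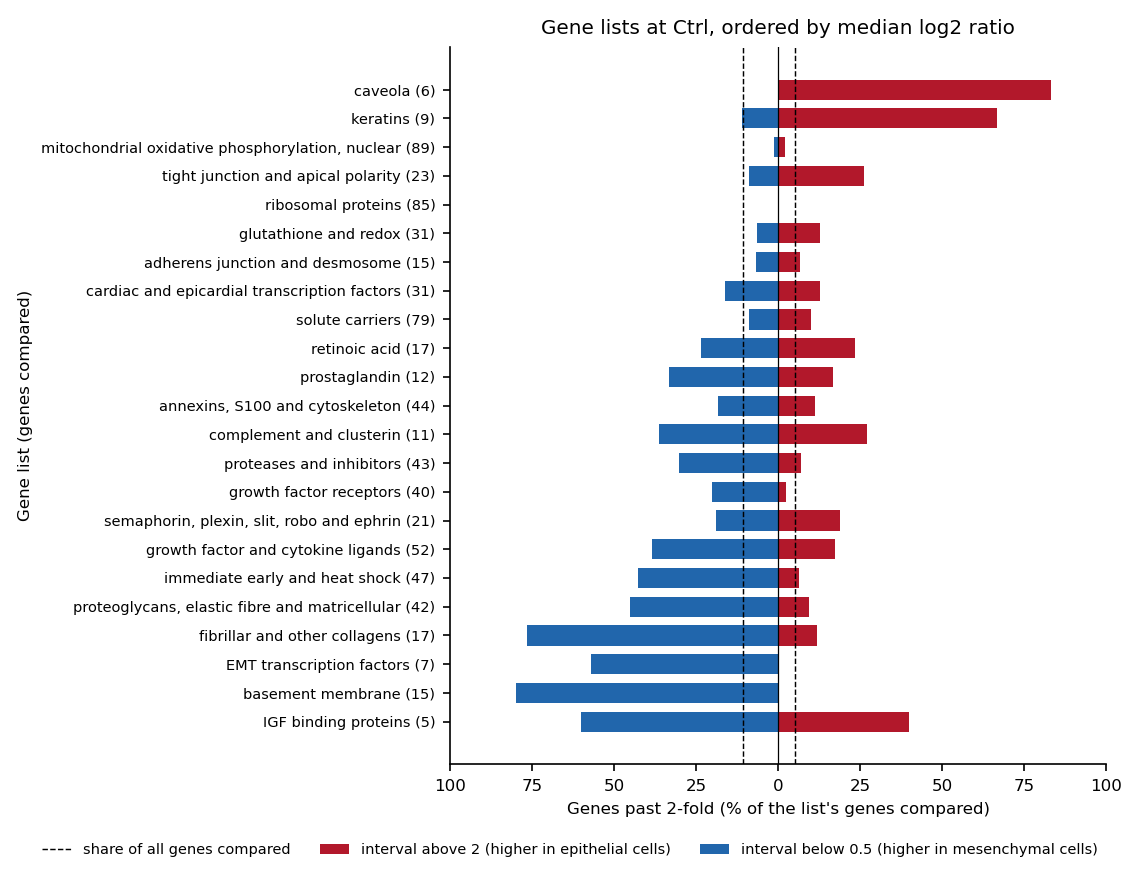
Share of the compared genes of each list past 2-fold at Ctrl (%), to the right for higher in epithelial cells and to the left for higher in mesenchymal cells, ordered by the list's median log2 ratio, with the number of genes compared in brackets and dashed lines at the shares over all genes (5.15% and 10.6%). Caveola genes and keratins stand farthest to the right, and basement membrane genes and collagens farthest to the left.

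The retinoic acid genes lay on both sides. Of 17 compared, 4 were past 2-fold in each direction (median log2 ratio -0.04), and 1 of the epithelial ones, rbp2a, rested on the endothelial-marked cells. The last step of synthesis, that of aldh1a2, was epithelial, and the genes of the step before it and of intracellular carriers were found on either side. Beside aldh1a2, the cellular retinoic acid binding protein crabp1a stood at 1.77 UMIs per 10000 (1.61 to 1.93) and 0.0614 (0.0487 to 0.0764), a 28.8-fold difference (22.7 to 37.0), and dhrs9, whose mammalian counterpart oxidises retinol, was 6.27-fold higher (4.79 to 8.22). The related carrier crabp2a lay on the opposite side, with 0.0074 and 0.345 (46.6-fold lower in epithelial cells, 12.8 to 386, from 2 epithelial UMIs), and so did crabp2b, which had 2 epithelial UMIs as well. rdh10b, which oxidises retinol to the retinaldehyde that aldh1a2 uses, was 2.53-fold lower in epithelial cells, at 1.59 and 4.04, while its paralog rdh10a, at 1.23 and 0.651, was not past 2-fold (ratio 1.89, 1.66 to 2.15). dhrs3a, which reduces retinaldehyde, was 2.71-fold lower. The retinol carrier rbp4 was at 158 and 184, a ratio of 0.858.

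**Figure D4:**
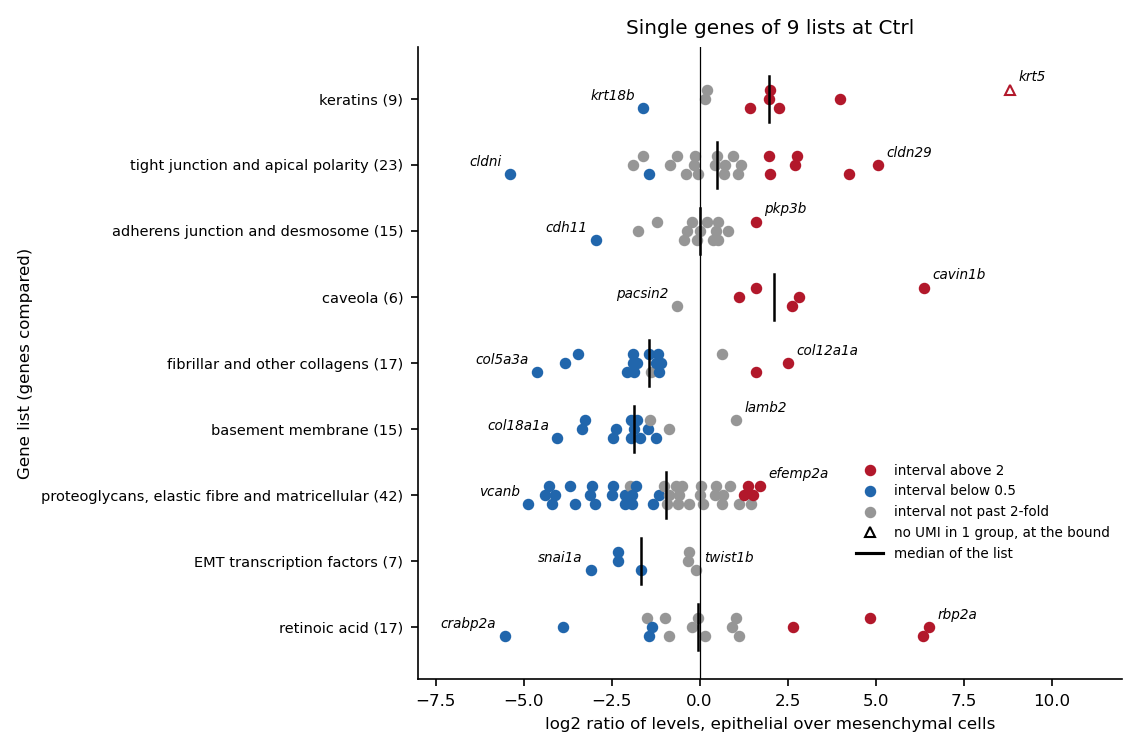
Log2 ratio of epithelial to mesenchymal level at Ctrl for each compared gene of selected lists, with a bar at each list's median and an open triangle for krt5, which had no mesenchymal UMI and is drawn at its bound. Keratin and caveola genes lie mostly above 0 and basement membrane genes and collagens mostly below, while retinoic acid genes lie on both sides.

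Secreted signals differed in both directions. Of 52 growth factor and cytokine ligands and their inhibitors, 9 were past 2-fold in epithelial and 20 in mesenchymal cells (median log2 ratio -0.95), with cxcl12b among the 9 resting on the endothelial-marked cells. On the epithelial side, the platelet-derived growth factor chain pdgfab stood at 0.381 and 0.0230 UMIs per 10000 (16.6-fold, 10.9 to 25.8), and the Wnt-binding antagonist frzb at 4.12 and 0.308 (13.4-fold, 11.9 to 15.0). sfrp1a, another Wnt-binding antagonist, was 4.86-fold and the activin antagonist fstb 4.76-fold higher. On the mesenchymal side, the endothelial growth factor vegfaa stood at 1.08 (0.957 to 1.21) and 13.6 (13.4 to 13.8), 12.6-fold lower in epithelial cells, and the chemokine cxcl18b at 16.9 and 107 (6.30-fold lower). il11b held no epithelial UMI against 0.235 per 10000, which makes it at least 21.2-fold lower. nrg1, a mitogen of cardiomyocytes, stood at 0.0370 and 0.418 (11.3-fold lower, 6.09 to 23.7). The activin subunit and its antagonist were thus on opposite sides, inhbaa in mesenchymal and fstb in epithelial cells.

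Of 40 growth factor receptors, 8 were past 2-fold in mesenchymal cells (median -0.37) and 1 in epithelial cells, kdrl, which rested on the endothelial-marked cells. The PDGF receptor pdgfra stood at 0.0925 and 1.03 (11.1-fold lower in epithelial cells, 7.48 to 17.2) and pdgfrb, a mural cell marker, at 0.570 and 1.62 (2.85-fold lower). Of 21 guidance genes, 4 were past 2-fold on each side and 7 had a ratio above 1 (median -0.83). efna1b, an ephrin ligand, was 16.4-fold higher in epithelial cells, at 2.41 and 0.147, and the semaphorin sema3d 8.36-fold, at 0.962 and 0.115, while the netrin ntn1a was 13.3-fold lower, at 0.185 and 2.47. Of 12 prostaglandin genes, 2 and 4 were past 2-fold. The prostaglandin D synthases ptgdsb.1 and ptgdsb.2, near-identical neighbours whose reads can be split between them, were 3.80-fold and 3.13-fold higher in epithelial cells, whereas the cyclooxygenase ptgs2a (0.840 and 5.40) was 6.43-fold and the receptor ptger2b (0.207 and 3.09) 14.9-fold lower.

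Complement genes also divided. Of 11 compared, 3 were past 2-fold in epithelial and 4 in mesenchymal cells (median -0.29). c3a.1, cfd, which encodes the protease factor D, at 6.84 and 2.30 (2.98-fold), and c4b (2.57-fold) were epithelial. The secreted chaperone clusterin, clu, stood at 0.759 and 8.53 (11.2-fold lower, 9.80 to 13.0), and c7a, a member of the lytic complex, was 4.38-fold and c4 2.20-fold lower in epithelial cells. Of 10 insulin-like growth factor binding protein genes in the files, 5 held enough UMIs to be compared, and 2 were past 2-fold in epithelial and 3 in mesenchymal cells. igfbp5b and igfbp2a (8.24-fold) were higher in epithelial cells, and igfbp1a, igfbp1b and igfbp3 were 6.12-fold, 7.48-fold and 5.18-fold lower. For igfbp1a, with 4 epithelial UMIs, the log2 ratio in thinned cells (0.23) took the bound of 3 UMIs used for a group without a UMI. That value gives no direction. igfbp1a was not past 2-fold or had under 100 UMIs in 5 of 18 alternative settings.

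Transcription factors of EMT were on the mesenchymal side or not past 2-fold. Of 7 compared, 4 were past 2-fold in mesenchymal cells and none in epithelial cells (median log2 ratio -1.67). The repressor snai1a stood at 0.0999 UMIs per 10000 (0.0658 to 0.145) and 0.850, 8.51-fold lower in epithelial cells (5.81 to 13.0), and zeb2a at 0.189 and 0.946 (5.02-fold lower). snai2 was 4.98-fold and prrx1a 3.18-fold lower, and twist1a, at 1.91 and 2.41, and twist1b, at 0.174 and 0.188, were not past 2-fold. The defining epicardial factors tcf21 and tbx18 were similar in level, at 69.6 and 80.9 (ratio 0.860, 0.847 to 0.874) and at 1.51 and 1.30 (1.16, 1.04 to 1.29), and wt1b was low in both, at 0.133 and 0.323 (0.412, 0.285 to 0.580).

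The whole list of cardiac and epicardial factors divided almost evenly, with 4 of 31 past 2-fold in epithelial and 5 in mesenchymal cells (median -0.00). The inhibitors of basic helix-loop-helix factors id1 (13.6 and 2.91) and id2a (4.52 and 1.21) were 4.68-fold and 3.74-fold higher in epithelial cells, sox6 4.54-fold and the Krüppel-like factor klf2a 3.55-fold. foxc1b was 7.45-fold, sox11a 7.33-fold, klf6a 3.80-fold, osr1 3.09-fold and nfixb 2.67-fold lower. Over 167 genes of broader transcription factor families, 10 were past 2-fold in epithelial and 38 in mesenchymal cells (median -0.39). six1b was 23.2-fold (9.88 to 71.7), runx2b 21.9-fold (5.98 to 182, from 2 epithelial UMIs) and the Hairy-related repressor her9 14.7-fold (11.2 to 19.7) lower in epithelial cells. The CCAAT-binding factors cebpa, at 4.05 and 1.02, and cebpd, at 8.90 and 3.57, were 3.97-fold and 2.50-fold higher.

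Immediate early and heat shock genes, taken as 1 list, were mostly higher in mesenchymal cells. Of 47 compared, 20 were past 2-fold there and 3 in epithelial cells (median -0.95), and 9 had a ratio above 1. Not every heat shock gene lay on the mesenchymal side, with hsp90ab1 at a ratio of 1.31 (1.28 to 1.34) and hsp70l as given below. fosab stood at 31.7 and 84.2 UMIs per 10000 (2.66-fold lower in epithelial cells), dusp5, a phosphatase of MAP kinases, at 1.96 and 22.1 (11.3-fold lower), and egr3 and nr4a3 were 13.2-fold and 12.9-fold lower. These genes are known to respond fast to cell handling as well as to signals in tissue, and their part in the other differences was not tested. With their UMIs left out of the totals, 315 and 713 genes were past 2-fold. In the few epithelial ones, hsp70l (3.36-fold higher) turned direction when the epithelial limit was raised to 20 per 10000 (log2 ratio -0.16).

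Among the genes that the study links to activated epicardial progenitors after injury, aldh1a2 and cav1, described above, were past 2-fold in epithelial cells at Ctrl. So was col12a1a, but the study names its paralog col12a1b as the marker and otherwise writes only col12a1. Of 12 other genes of the study compared, 4 were past 2-fold in mesenchymal cells (median -0.86) and none in epithelial cells. These were snai1a, fn1a at 0.137 and 1.19 (8.67-fold lower in epithelial cells, 6.26 to 12.4), fstl1a and loxa (7.81-fold lower, 2.61 to 38.5). fstl1a had no epithelial UMI and was 14.8-fold lower with 3 UMIs put in place of none. The log2 ratio of loxa in thinned cells (0.00) took the bound of 3 UMIs and gives no direction. The study names fn1a as a marker but elsewhere writes fn1, and it writes only fstl1. The paralogs fn1b and fstl1b stood at 22.0 and 2.93 in epithelial cells. Without the endothelial-marked cells their ratios were 1.03 and 0.473, neither past 2-fold. ptx3a had 0 epithelial and 40 mesenchymal UMIs and col12a1b 1 and 24, too few to be compared. The ligand tgfb1a was at 0.126 and 0.243 (ratio 0.517, 0.352 to 0.738).

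Transporters were spread over both sides, with 8 of 79 solute carriers and channels past 2-fold in epithelial and 7 in mesenchymal cells (median -0.01). slc16a12b, of the monocarboxylate transporter family, stood at 0.344 and 0.0130 UMIs per 10000 (26.4-fold, 15.6 to 47.2) and slc5a8l, of the sodium-coupled family, at 1.36 and 0.143 (9.51-fold, 7.95 to 11.4). aqp8a.1, which rested on the endothelial-marked cells, was among the 8. The glycerol and water channel aqp3a was 14.1-fold lower in epithelial cells, at 0.0185 and 0.262. Of 16 interferon response genes, 3 and 2 were past 2-fold, with the immunoproteasome subunits psmb8a and psmb9a 4.09-fold and 5.35-fold higher and irf8, at 0.104 and 1.07, 10.3-fold lower in epithelial cells. Immune cells held more of psmb8a and psmb9a, at 1.16 and 0.958 against 0.496 and 0.374 in epithelial cells. ifi44a1, 3.72-fold higher in epithelial cells, was not past 2-fold or had under 100 UMIs in 11 of 18 alternative settings. Of 14 lipid genes, 1 and 3 were past 2-fold, with the lipoprotein lipase gene lpl 4.82-fold higher and the lipid droplet gene plin3, at 1.19 and 5.57, 4.69-fold lower. The inhibitory Smads divided, smad6a 4.68-fold higher and smad7 2.89-fold lower.

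Housekeeping lists held few differences past 2-fold. None of 85 ribosomal protein genes was past 2-fold (median 0.30), nor any of 5 cell cycle genes, and of 89 nuclear genes of oxidative phosphorylation 2 and 1 were (median 0.51). Of 21 glycolysis genes, 3 were past 2-fold in mesenchymal cells, namely the glucose transporter slc2a1b (3.10-fold lower in epithelial cells), the hexokinase hk2 (3.00-fold) and the lactate transporter slc16a3 (7.16-fold), and none in epithelial cells. Among 31 glutathione and redox genes, 4 and 2 were. The glutathione transferase gstm.3 was one of the most abundant epithelial genes, at 74.5 (73.4 to 75.5) and 5.34 (5.22 to 5.47), 13.9-fold higher, and gpx1a was 4.79-fold higher. The thioredoxin gene txn, with 0.318 and 2.32, was 7.28-fold lower, and without the endothelial-marked cells its epithelial level was 0.106.

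The copies of a duplicated gene differed in side in few pairs. Over all genes compared, 5.15% were past 2-fold in epithelial and 10.6% in mesenchymal cells, so some pairs would differ in side without any link between copies. Whether the counts of pairs depart from that was not tested. Of 373 pairs with both copies compared, 3 were past 2-fold in epithelial cells in both copies and 15 in mesenchymal cells in both, 100 had 1 copy past 2-fold and 5 had the copies on opposite sides. Of these 5, the pair of cxcl12a and cxcl12b rested on the endothelial-marked cells through cxcl12b alone. The chromatin gene pair phc2a and phc2b had log2 ratios of 1.56 and -3.58, and hmgb3a and hmgb3b, which encode DNA-bending proteins, -3.89 and 1.45. Reads shared between near-identical copies can move such values.

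The epithelial cells varied among themselves. The description leaves out the endothelial-marked cells and orders the other 201 along principal components of 1000 variable genes, so that the genes at its ends are those that built it. The first component (11.0% of variance) ran along immediate early genes. In the 50 cells at one end fosab stood at 54.8 UMIs per 10000, jdp2b at 54.5 and cxcl18b at 42.2, against 3.68, 1.71 and 3.61 at the other end, where cebpd (12.3 against 4.28) and LRATD2 (6.67 against 1.62) were higher. Median depth at these ends was 13538 and 9884.5 UMIs. The second component (4.52%) set igfbp5b (26.0 against 3.45), s100a10a (26.5 against 4.49) and tmsb1 (17.6 against 5.99) apart from cfd (15.5 against 0.904), adh8a (26.6 against 8.67) and cxcl12a (3.05 against 0.0670). Both ends held genes past 2-fold in epithelial cells in the comparison of the groups, cfd, c4b and adh8a at the latter end among them, while cxcl12a was past 2-fold in mesenchymal cells. By the summed level of the rule genes, from 51 cells at 8 to 12 through 89 at 12 to 20 to 61 at 20 or more, igfbp5b stood at 11.2, 14.7 and 16.7, aldh1a2 at 7.74, 9.47 and 10.3, and dpt at 1.32, 0.653 and 0.540. Not every leading epithelial gene followed this order, with serpine3 at 1.39, 1.15 and 1.04 and c3a.1 at 1.47, 1.64 and 0.762.

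Mesenchymal cells varied along some of the same genes, but not in the same arrangement. Over the 2443 cells deep enough to thin, the first component (7.88% of variance) ran from 610 cells with 60.2 UMIs per 10000 of timp2b, 43.7 of dusp5 and 197 of cxcl18b to 610 cells with 0.724, 1.65 and 24.7. At the latter end hsd11b2 stood at 16.3 against 1.26, adh8a at 11.0 against 0.685, cebpd at 8.53 against 0.990 and cxcl12a at 11.0 against 1.47. The immediate early genes jun (39.6 against 10.5) and egr1 (7.96 against 0.918) were also higher there, opposite to cxcl18b. In the epithelial cells fosab and cxcl18b were high at the same end. hsd11b2, adh8a and cebpd were past 2-fold in epithelial cells in the comparison of the groups, so part of the mesenchymal cells shared these transcripts. The second component (3.73%) ran from fosab, jun and btg2 (151, 56.1 and 80.9 against 41.1, 10.5 and 12.9) to inhbaa (11.4 against 1.27), with median depths of 3633.5 and 5679.5 UMIs.

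The same rule found 639 epithelial and 1448 mesenchymal cells at 3 dpa and 1000 and 3061 at 7 dpa. These libraries are other conditions and not repeats of Ctrl, and the genes followed were chosen by their Ctrl values, which favours a smaller difference elsewhere. At 3 dpa 5.27% of 8865 genes compared were past 2-fold in epithelial and 6.08% in mesenchymal cells, and at 7 dpa 5.04% and 8.94% of 8727. Of 307 epithelial genes of Ctrl compared in all 3 libraries, 131 (42.7%) were past 2-fold in the same direction at 3 dpa and 166 (54.1%) at 7 dpa, with 123 in both. Of 625 mesenchymal genes, 315 (50.4%) and 460 (73.6%) were, with 302 in both. For the epithelial genes the median log2 ratio went from 1.90 (Ctrl) to 1.04 (3 dpa) and 1.27 (7 dpa), and for the mesenchymal genes from -2.11 to -1.23 and -1.72. Of these 307 and 625 genes, few were past 2-fold in the opposite direction, namely cdo1 (3 dpa) and lum (both injured libraries) among the epithelial genes, and calm3a, cxcl8a and scinla (3 dpa) and itpk1a (7 dpa) among the mesenchymal ones.

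Some differences were of like size in all 3 libraries. In the order Ctrl, 3 dpa, 7 dpa, krt15 was 4.80-fold, 4.59-fold and 4.88-fold higher in epithelial cells, s100a10a 36.8-fold, 29.9-fold and 35.8-fold, and abi3bpa 56.0-fold, 57.8-fold and 56.2-fold lower. Others were smaller after injury. aldh1a2 stood at 14.5 UMIs per 10000 in epithelial and 3.57 in mesenchymal cells at 3 dpa (4.07-fold, 3.95 to 4.20) and at 9.65 and 0.892 at 7 dpa (10.8-fold, 10.3 to 11.4). Its mesenchymal level was above that of immune cells in these libraries (0.967 and 0.524), which was not so at Ctrl. igfbp5b in epithelial cells stood at 2.17 and 4.07 against 13.9 at Ctrl, and krt91 at 13.7 and 37.0 against 51.1. The fibronectin gene fn1a, low at Ctrl with 0.137 and 1.19, stood at 15.5 and 12.9 at 3 dpa. tcf21 in epithelial cells stood at 23.1 and 35.1 after injury, for ratios of 0.523 and 0.462 to mesenchymal cells. Whether these changes come from the injury, the fish or the library cannot be told apart with 1 library per condition.

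**Figure D5:**
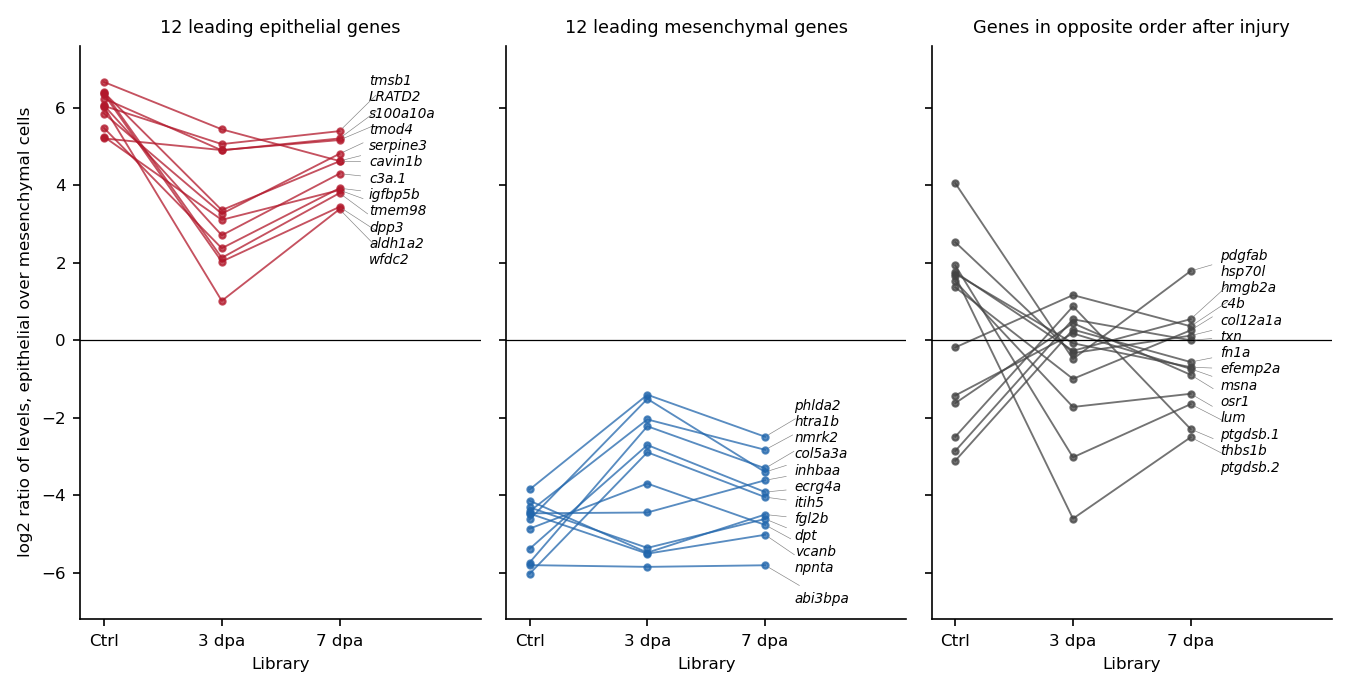
Log2 ratio of epithelial to mesenchymal level at Ctrl, 3 dpa and 7 dpa for the 12 leading genes on each side, chosen by their Ctrl values, and for 14 genes whose order was opposite in an injured library and that were past 2-fold in at least 1 of the libraries compared (1 library per condition, ptgdsb.1 and ptgdsb.2 with under 100 UMIs at 3 dpa). All 24 leading genes stay on their side of 0 in the 3 libraries, and several, such as aldh1a2 (81.2-fold, 4.07-fold and 10.8-fold), lie closer to 0 after injury.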

How the data were processed

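Reads were aligned and counted by the authors with Cell Ranger 3.0.2 (the submitters' processing notes also name the GRCz10 build), and raw UMI counts per gene and droplet were deposited without normalization. The Ctrl counts hold 5284 droplets and 32520 gene identifiers, of which 1261 clone names took symbols from the reference table, and 456 compared genes are listed only by clone name. Cells were kept and grouped as the report states. A level is a group's UMIs of a gene per 10000 of its UMIs, and a gene was compared when it held at least 100 UMIs over both groups. Genes without a UMI in a group entered medians and log2 ratios at the bound of 3 UMIs. The members, gene lists and rules were chosen with earlier results of these data known. The genes named were the 8 rule genes, the 12 leading genes each way among those in at least 10% of a group's cells (ranked by the interval bound nearer 1), genes the study names, and up to 4 members each way of a list with up to 2 abundant members not past 2-fold. Further members, chosen after their values were seen, are paralogs, genes at the ends of components and genes listed as depending on endothelial-marked cells. Other genes were also added after their values were seen, such as cemip, fstb, vim, col4a1 and krt8. Kinase genes were taken out of the ribosomal list after they were seen there. Where shares of cells are given after thinning, cells were thinned to 1800 UMIs, which left out 77 mesenchymal cells. Other shares, such as those of cell type markers, are at full depth. Scrublet's automatic threshold marked 1 of 5098 cells, too few to have worked, so doublets stayed in. An alternative dropped the 216 cells with the highest scores (0.8% per 1000 droplets). Alternatives changed the filters, the limits of both groups, each rule gene, the totals, the weighting of cells, the minimum of UMIs and the fold. Leaving out endothelial-marked cells and leaving out immediate early and heat shock UMIs were added after seeing the data. Scripts used Python 3.11.15, numpy 2.4.6, scipy 1.17.1, pandas 2.3.3, scikit-learn 1.9.0, scanpy 1.11.5 and matplotlib 3.10.9. The code of the intervals was run on simulated independent Poisson counts, the case for which they are built. UMIs that cluster in few cells were not simulated, so this does not show how the intervals cover such genes.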

Additional observations from a re-analysis of the deposited data

Results flagged for a closer look

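For 14 of the 238 named genes compared at Ctrl the order of the groups was opposite to that in an injured library, with both intervals clear of 1 and at least 1 of them past 2-fold. The difference was not tested, since each condition is 1 library. No count by this rule over all genes is given. Of the 307 epithelial and 625 mesenchymal genes of Ctrl compared in all 3 libraries, 90.9% and 93.9% kept the sign of their log2 ratio at 3 dpa. At 7 dpa 97.1% and 98.6% did. At 3 dpa the ratio of epithelial to mesenchymal level was 0.3021 for lum against 2.86 at Ctrl, 0.7126 for pdgfab against 16.6, 0.4992 for c4b against 2.57, 0.8249 for hsp70l against 3.36 and 0.7922 for col12a1a against 5.76, all higher in epithelial cells at Ctrl. In the other direction it was 1.449 for txn against 0.137 at Ctrl, 1.125 for msna against 0.371, 2.235 for hmgb2a against 0.876, 1.206 for fn1a against 0.115, 1.826 for thbs1b against 0.177 and 1.353 for osr1 against 0.323. At 7 dpa the ratio was 0.3825 for lum, 0.6152 for efemp2a against 3.28 at Ctrl, 0.1758 for ptgdsb.2 against 3.13 and 0.3178 for ptgdsb.1 against 3.80.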

How the results depend on the processing

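The counts of genes past 2-fold moved by more than 1.5 times from 326 and 673 in 4 settings. They were 104 and 352 with cells thinned to 1800 UMIs, where fewer genes reached 100 UMIs, 155 epithelial genes with a minimum of 300 UMIs, 654 and 1120 with the ratio itself past 2-fold, and 673 and 1047 with the interval past 1.5-fold. Log2 ratios turned direction for hsp70l (-0.1588) at the epithelial limit of 20. They did so for aqp8a.1 (-1.9204), cldn5b (-0.5907) and cxcl12b (-0.2226) without podxl in the rule. Without the endothelial-marked cells they did so for aqp8a.1 (-1.2810), rbp2a (-1.5034) and cldn5b (-0.5705). In thinned cells igfbp1a (0.2252) and loxa (0.0028) took the bound of 3 UMIs used for a group without a UMI, so these values give no direction. The 238 named genes compared include 171 past 2-fold, and of these none turned direction in the other settings run. Genes added beyond the naming rule, such as cemip, fstb, vim, col4a1 and krt8, are not among the 238, so these counts do not cover them. Direction was not followed for the named genes not past 2-fold. Of the named genes not past 2-fold, cd74a, with a ratio of 1.96, moved by 2.08 on the log2 scale under ptprc and myl7 limits on epithelial cells. Of 171 named genes past 2-fold, 57 were not in thinned cells (41 of them under 100 UMIs), 33 were not at the limit of 20 (14 under 100 UMIs), 17 without podxl in the rule, and 10 or fewer in any other of the 18 settings. Ratios moved by over 1.5-fold for 70 of the 238 at the limit of 20, for 59 in thinned cells and for 46 without podxl in the rule, and the cause was not tested. Depth limits low genes, and epithelial levels rest on 2702618 UMIs. No paired analysis was possible because each condition is 1 library.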
